A study of Mus musculus with 8 samples.

Results

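Epas1, Bbx, Otx2, Otx2os1 and Sox21 are 5 of the 22810 genes in the allele-specific counts of single mouse blastocysts. They were chosen as published imprinted genes of transcription regulators, with the antisense RNA of one of them, in which the reads of these embryos were mostly paternal. The members were therefore selected on the measured difference between paternal and maternal reads, and that difference is given below as a description without a test. The embryos came from natural matings of B6 (C57BL/6, an inbred laboratory strain) with cast (Mus musculus castaneus, a wild-derived subspecies) and were lysed at E3.5 without culture. The forward cross (B6 mother, cast father) gave 3 embryos, numbered 1 to 3, and the reverse cross (cast mother, B6 father) gave 5, numbered 1, 2, 3, 5 and 7. No embryo was treated, and nothing in the sources used here says which embryos shared a mother. The p-values between the crosses measure the spread between these single embryos. Those between alleles measure the spread between the allele counts. There both alleles of an embryo are taken as unpaired unless a term for each embryo is named.

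Genomic imprinting leaves a gene active on the chromosome inherited from one parent and silent or weaker on the other. In preimplantation mouse embryos a group of paternally expressed genes carries the histone mark H3K27me3 on the maternal allele, laid down in the oocyte and not dependent on DNA methylation. Epas1 encodes HIF-2alpha, a bHLH-PAS transcription factor that pairs with Arnt and activates genes when oxygen is low. Bbx and Sox21 encode proteins with an HMG box, the DNA-binding domain of the Sox family. Otx2 is a homeodomain factor of the bicoid class that acts in the epiblast as it leaves naive pluripotency and later in the forebrain, and Otx2os1 is a long non-coding RNA on the opposite strand at the same locus.

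On mm10 with GENCODE M21, Epas1 lies on chromosome 17 from 86753700 to 86833410 on the plus strand, and Bbx on chromosome 16 from 50191844 to 50432390 on the minus strand. Otx2 lies on chromosome 14 from 48657677 to 48673819 on the minus strand, Otx2os1 from 48668708 to 48870683 on the plus strand, and Sox21 on the same chromosome from 118233232 to 118237030 on the minus strand. The spans of Otx2 and Otx2os1 overlap over 5112 bases, and 154 exon bases belong to both. The sources used here do not say if strand entered the counting, so reads of these shared bases could be counted for either gene.

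The start regions of the members on chromosome 14 are shown as a description of their CpG content. RefSeq (GRCm38.p6) lists 4 starts for Otx2 and 1 for Sox21. The 250 bases before the start are printed 5′ to 3′ on the minus strand with each CpG in capitals, for the Otx2 start nearest to Otx2os1 (chr14:48667645-48667894), for the Otx2 start with the most CpGs (chr14:48665110-48665359) and for Sox21 (chr14:118237031-118237280).
Otx2, start nearest to Otx2os1: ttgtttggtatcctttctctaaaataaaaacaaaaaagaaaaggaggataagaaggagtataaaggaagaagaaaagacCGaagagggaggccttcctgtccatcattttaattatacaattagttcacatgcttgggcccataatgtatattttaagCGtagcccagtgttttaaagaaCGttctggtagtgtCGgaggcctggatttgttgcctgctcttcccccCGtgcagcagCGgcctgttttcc
Otx2, start with the most CpGs: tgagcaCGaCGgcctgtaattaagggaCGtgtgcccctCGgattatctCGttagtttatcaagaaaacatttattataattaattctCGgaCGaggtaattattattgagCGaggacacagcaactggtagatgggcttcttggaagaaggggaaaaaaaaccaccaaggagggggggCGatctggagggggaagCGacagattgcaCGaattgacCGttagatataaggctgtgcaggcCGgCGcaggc
Sox21: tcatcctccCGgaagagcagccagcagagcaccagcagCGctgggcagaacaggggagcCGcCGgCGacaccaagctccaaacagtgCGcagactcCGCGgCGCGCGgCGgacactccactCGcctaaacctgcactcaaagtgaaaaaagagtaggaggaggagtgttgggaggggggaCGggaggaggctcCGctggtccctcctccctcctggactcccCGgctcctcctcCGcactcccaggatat
The first window held 6 CpGs and the second 14, while that of Sox21 held 17. Of the 32851 start windows of this length in the table, 50.4% held at least 6, 29.4% at least 14 and 23.5% at least 17. The second Otx2 window also held 1 TAATCC (on either strand), the core of the sequence bound by Otx proteins, which 6.25% of all windows held, and 1 ACGTG, the core of the hypoxia response element, which 16.6% held. Neither motif occurred in the first Otx2 window or in that of Sox21. ACAAAG, a Sox-type motif held by 16.5% of windows, occurred in none of the 3. Such a match is a description of letters only.

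Each value counts reads that span a SNP between B6 and cast, summed over a gene, for one strain's allele in one embryo. The deposited counts hold 16 such allele libraries, with a total of 1060063 to 1632695 reads per embryo, and in every embryo the B6 library was the larger one. Tests took genes that reached 10 reads in 1 allele library or more, as all 5 members did. Epas1 reached 10 reads in 9 of the 16 libraries and Bbx in 8. Sox21 reached it in 4, Otx2os1 in 3 and Otx2 in 1, so that the last 3 rest on few reads. The defining genes of the blastocyst lineages were read in all embryos. The 11 trophectoderm genes summed to 2580 to 7908 CPM (counts scaled to a common library size, here per 1e+06 reads of the embryo), the 10 epiblast genes to 782 to 1183, and the 10 primitive endoderm genes to 594 to 944.

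Epas1 was read almost only from the paternal allele in all 8 embryos. Its maternal and paternal reads were 14 and 122 in forward embryo 1, 6 and 147 in forward embryo 2, and 2 and 160 in forward embryo 3. In reverse embryos 1, 2, 3 and 7 no maternal read was counted beside 362, 440, 51 and 102 paternal reads, and reverse embryo 5 had 1 maternal and 201 paternal reads. Forward embryos had a mean paternal share of 94.8% ± 4.65 (SD, n = 3), and reverse embryos one of 99.9% ± 0.221 (SD, n = 5). Of the 23 maternal reads of Epas1, 22 lay in forward embryos. The maternal share in forward embryo 1 was 10.3%, with an exact 95% binomial interval of 5.74% to 16.7%. These intervals cover counting error only, since amplified reads without molecular identifiers are not independent molecules.

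**Figure D1:**
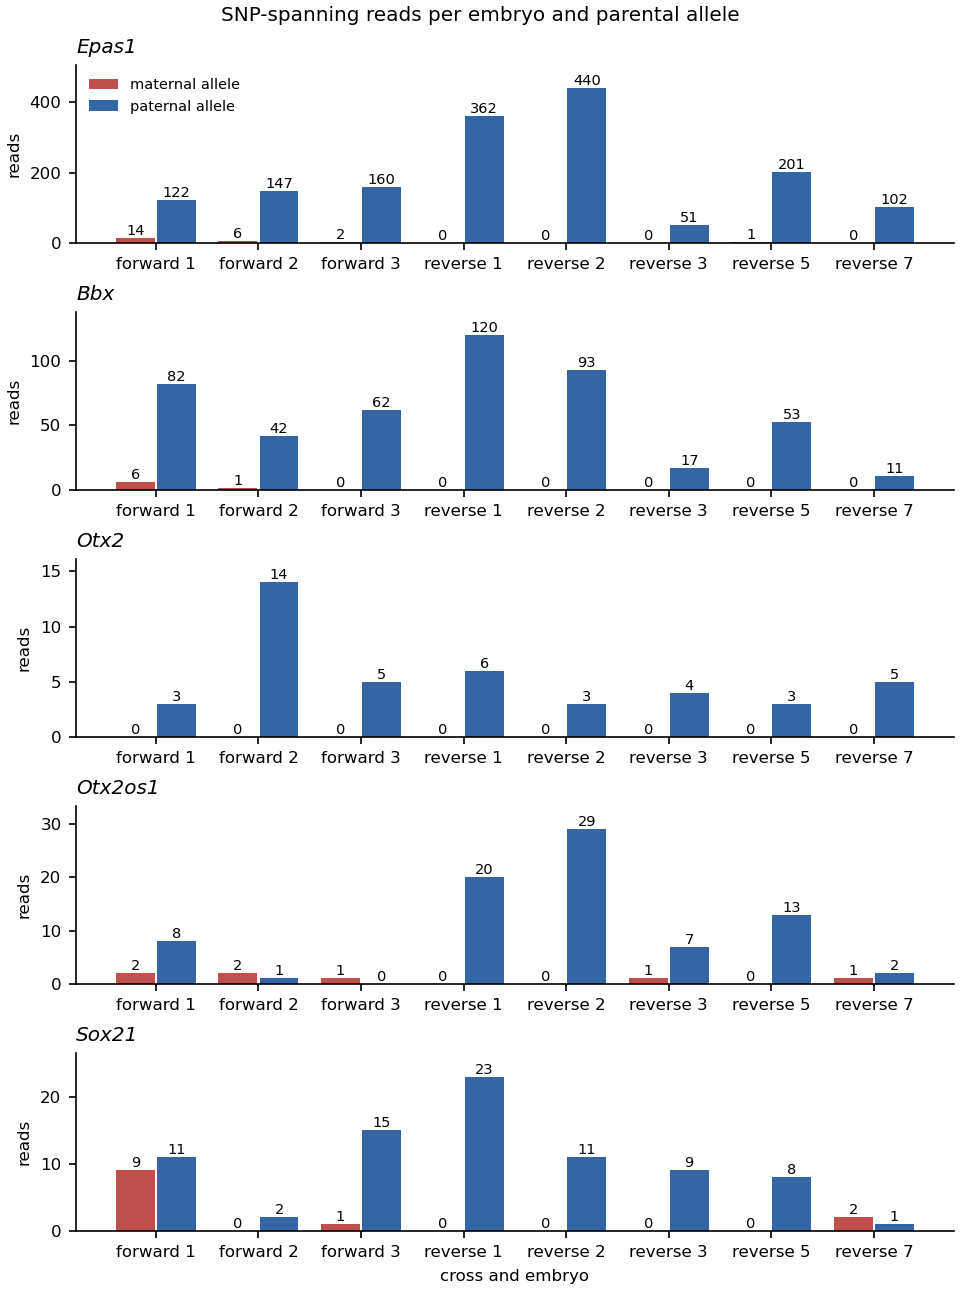
Reads spanning a SNP (y axis, counts) of each gene in each embryo (x axis, cross and embryo number), with maternal reads in red and paternal reads in blue and each count printed above its bar. Epas1 and Bbx have more paternal than maternal reads in 8 of 8 embryos, with up to 14 and 6 maternal reads, both in forward embryo 1.

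Bbx showed the same order in every embryo with fewer reads. Forward embryos 1, 2 and 3 had 6, 1 and 0 maternal reads beside 82, 42 and 62 paternal reads. In reverse embryos 1, 2, 3, 5 and 7 the paternal reads were 120, 93, 17, 53 and 11, with no maternal read among 294. For the maternal share in the reverse cross, a limit of 3 counts in 294 reads is 1.02%, and the exact 95% interval reaches 1.25%. The paternal share in the forward cross was 97.0% ± 3.47 (SD, n = 3), and 6 of the 7 maternal reads lay in forward embryo 1.

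Otx2 had no maternal read in any embryo. Its paternal reads were 3, 14 and 5 in the forward embryos, in the order of their numbers, and 6, 3, 4, 3 and 5 in the reverse ones. With 22 reads in one cross and 21 in the other, the limit of 3 counts is a maternal share of 13.6% and 14.3%, and the exact 95% intervals reach 15.4% and 16.1%. Forward embryo 2 held 14 of the 43 reads and stands above the other embryos, which overlap between the crosses.

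Otx2os1 was paternal in the reverse cross and without a clear order in the forward cross. The reverse embryos 1, 2, 3, 5 and 7 had 20, 29, 7, 13 and 2 paternal reads beside 0, 0, 1, 0 and 1 maternal reads. Forward embryos 1, 2 and 3 had 8, 1 and 0 paternal and 2, 2 and 1 maternal reads. The summed paternal share was 97.3% of 73 reads in the reverse cross and 64.3% of 14 reads in the forward cross. The exact 95% interval of the maternal share in the forward cross ran from 12.8% to 64.9%, so that both an equal share and a strong paternal excess lie within counting error there. The 14 forward reads of Otx2os1 contrast with the 22 forward reads of Otx2, of which 0 were maternal.

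Paternal reads of Sox21 numbered 11, 2 and 15 in the forward embryos, again in the order of their numbers, and 23, 11, 9, 8 and 1 in the reverse ones. The maternal reads were 9, 0 and 1 in the forward embryos and 0, 0, 0, 0 and 2 in the reverse embryos. In 7 of 8 embryos the paternal reads outnumbered the maternal ones. The exception was reverse embryo 7, where Sox21 had 3 reads in all. Forward embryo 1 held 9 of the 12 maternal reads, a maternal share of 45.0% with an exact 95% interval of 23.1% to 68.5%.

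The maternal reads of the members were unevenly spread over the embryos. Summed over the 5 genes, they made up 12.1% of the reads in forward embryo 1, 4.19% in forward embryo 2 and 1.63% in forward embryo 3. In the reverse embryos they made up 0 to 2.42%. Of the 49 maternal reads in all, 44 lay in the forward cross and 31 in forward embryo 1. Without forward embryo 1, the forward maternal share of Epas1 was 2.54% (8 of 315 reads, exact 95% interval 1.10% to 4.94%), that of Bbx 0.952% (1 of 105, interval 0.0241% to 5.19%) and that of Sox21 5.56% (1 of 18, interval 0.141% to 27.3%). Otx2 then had 0 maternal reads of 19. The forward maternal share of Otx2os1 was higher without this embryo, at 75.0% (3 of 4 reads, exact 95% interval 19.4% to 99.4%) against 35.7% with it.

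Forward embryo 1 held the most reads of leukocyte genes and the highest maternal share of the members. Among the other embryos of each cross, these 2 measures gave different orders. All 11 genes of this list were read in forward embryo 1, where they summed to 865 CPM, against 43.4 and 56.4 in forward embryos 2 and 3 and 3.77 to 6.64 in the reverse embryos. In forward embryo 1, 1410 of these 1413 reads were maternal, 1055 of them from Lyz2, a lysozyme of macrophages, and 245 from C1qb, a complement subunit that macrophages make. Forward embryo 3 had more leukocyte CPM than forward embryo 2 and the lower maternal share of the members. Among the reverse embryos, embryo 7 had the lowest leukocyte CPM (4 reads) and the highest maternal share (3 maternal reads). Reverse embryo 1 had the highest CPM (10 reads) and a share of 0. The order within the reverse cross thus rests on very few reads. Ptprc, the pan-leukocyte phosphatase CD45, had 27 maternal reads in forward embryo 1 and 0 in every other embryo. Of the other lists of cells outside the embryo, 8 uterine and oviduct epithelium genes summed to 85.1 to 94.9 CPM in the forward and 21.3 to 49.4 in the reverse embryos. The 5 cumulus cell genes gave 10.2 to 19.97 and 3.34 to 10.6, 9 oocyte genes 8.68 to 20.2 and 9.97 to 18.8, and 10 endothelial genes 81.6 to 140 and 129 to 208. The 2 autosomal red blood cell genes held 0 to 0.943. Their part in the maternal reads of the members was not tested.

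A higher maternal share in the forward cross was also seen in other paternally read genes. Among 15 genes of the imprinted gene lists below that were called higher from the paternal allele, 14 had a higher maternal share in the forward than in the reverse cross, with a median of 6.55% against 0.557%. Over all genes the order was the same, since the B6 library was the larger one in every embryo. Forward embryo 1 had 952171 maternal and 680524 paternal reads, and reverse embryo 1 had 640967 and 864188. The shares given here are not scaled for this. The exception was Peg3, with 0 of 82 forward and 3 of 182 reverse reads. Among the members, Epas1, Bbx, Otx2os1 and Sox21 had this order, and Otx2 had no maternal read in either cross. The 15 genes were picked for a low maternal share in all embryos together, so only the order of the crosses is described here. This order is also that of all reads, and it carries no test. Etv6, an ETS family repressor, and the zinc finger gene Zfp64 had the highest forward shares. Etv6 had 428 maternal of 871 forward reads (49.1%) and 7 of 1371 reverse reads, and Zfp64 had 164 of 404 (40.6%) and 33 of 528 (6.25%).

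**Figure D2:**
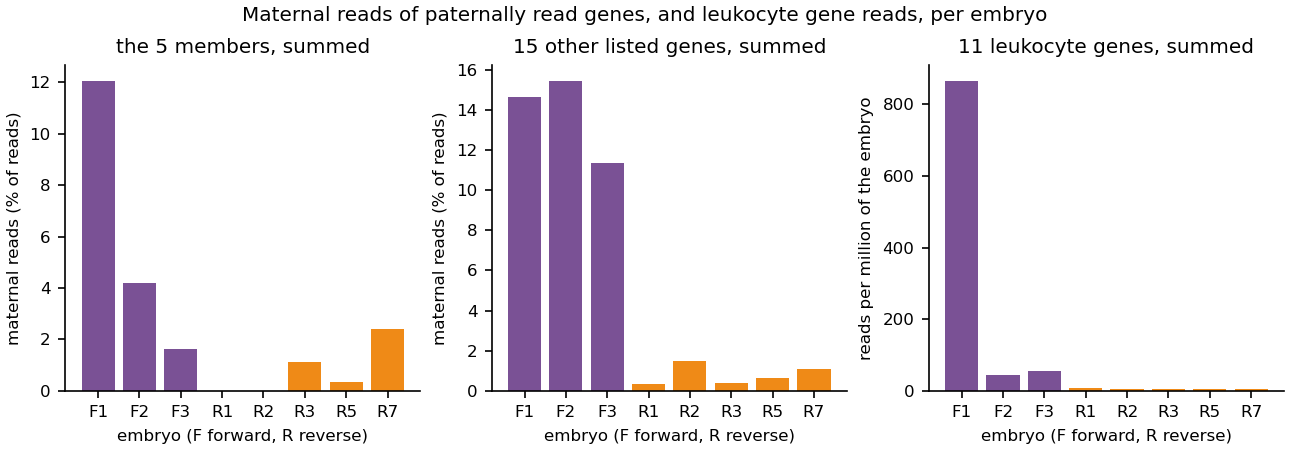
Left and middle, maternal reads as a percentage of all reads per embryo (F, forward, purple; R, reverse, orange) for the 5 members and for 15 other paternally called genes. Etv6 (428) and Zfp64 (164) hold most forward maternal reads of the middle sum, and the median forward share of the 15 genes is 6.55%. Right, CPM of 11 leukocyte genes, summed, which reach 865 in forward embryo 1, where the members' maternal share is 12.1%.

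The strain of the allele did not choose the members. It was tested for Epas1, Bbx and Sox21 in a fit that also uses the maternal reads, by whose low share the members were chosen. In the fit with strain and parent as terms, 1945 of 12565 autosomal genes (15.5%) differed between the strains at an adjusted p of at most 0.1 (edgeR quasi-likelihood test, Benjamini-Hochberg), and none of these genes was called, nor was any at an unadjusted p of at most 0.05 or in DESeq2. The log2 difference of the cast over the B6 allele was -0.95 ± 0.51 (SE, adjusted p = 0.273) for Epas1, -0.09 ± 0.51 (adjusted p = 0.95) for Bbx and -0.60 ± 0.80 (adjusted p = 0.734) for Sox21. Otx2 passed the filter only through 1 cast library and Otx2os1 only through 3 B6 libraries, the strain in which each is high, so their values of 1.06 ± 0.97 and -1.72 ± 0.83 are given without a test. The intervals of 2 SE reached from -1.96 to 0.07 for Epas1 and from -1.11 to 0.92 for Bbx, so that strain differences within these bounds were not excluded. The paternal reads of a gene come from cast in forward and from B6 in reverse embryos, so this comparison shares them with the one between the crosses. The few maternal reads enter it too. For Epas1 the mean maternal CPM of the allele libraries was 9.40 in forward (B6) and 0.346 in reverse embryos (cast), beside paternal means of 254 and 284. The values are thus not independent of the measure that chose the members. For Bbx and Sox21 the reverse over forward value was -0.27, which points to the other strain.

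Both alleles of an embryo form a pair, and a fit with a term for each embryo moved the strain values of Epas1 and Bbx farther from 0. With this replicate block, the log2 value of cast over B6 was -2.26 ± 0.46 (SE) for Epas1 and -1.74 ± 0.70 for Bbx. Within an embryo the strains are compared through the ratio of maternal to paternal reads, the measure that chose the members. These values are therefore a description without a p, and nothing is read from the 25.5% of all genes called in this fit. They rest on the 22 maternal reads of Epas1 and the 7 of Bbx in the forward cross, where they come from B6, against 1 and 0 in the reverse cross, where they come from cast. Without forward embryo 1 the paired values were -1.79 for Epas1 and -0.97 for Bbx. Over the 8 fits that each left out 1 embryo, the paired values ran from -3.02 to -1.79 for Epas1 and from -2.06 to -0.97 for Bbx. The part of the leukocyte reads of forward embryo 1 in these values was not tested. Otx2, having no maternal read, could not be fitted with the block.

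The reads of both alleles together were compared between the crosses. Of all 13077 genes tested, 9 were called (0.0688%), and none of the members was, a count near this background for so few genes. At an unadjusted p of at most 0.05 the table held 958 genes and none of the members. DESeq2 called 136 genes and no member. Otx2 entered this comparison only through forward embryo 2, so its value is given without a p. In bulk RNA of whole embryos, fewer cells that express a gene and less RNA per cell cannot be told apart.

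Levels are given as CPM of both alleles, scaled by TMM, in the order of the embryo numbers. Epas1 had 82.9, 136 and 133 CPM in the forward embryos, and its reverse embryos had 217, 278, 42.7, 153 and 98.8 CPM. The reverse embryos thus held both the highest and the lowest level and enclosed the forward embryos, and the log2 difference of reverse over forward was 0.43 ± 0.48 (SE, adjusted p = 0.87). Bbx had 53.7, 38.3 and 50.8 CPM in the forward embryos, against 72.0, 58.7, 14.2, 40.2 and 10.7 CPM in the reverse ones, with a log2 difference of -0.27 ± 0.53 (adjusted p = 0.94). Here too the reverse embryos enclosed the forward ones, and reverse embryos 3 and 7 were lowest.

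Otx2 ranged from 1.83 to 12.5 CPM in forward embryos and from 1.89 to 4.84 CPM in reverse embryos (log2 difference -0.92 ± 0.93 SE). Sox21 ranged from 1.78 to 13.1 and from 2.91 to 13.8 (-0.27 ± 0.75, adjusted p = 0.963). Otx2os1 was the member with the largest difference, with 0.819 to 6.10 CPM in forward embryos and 2.91 to 18.3 CPM in reverse embryos, and its groups overlapped in reverse embryo 7 (1.59 ± 0.84, adjusted p = 0.708). The intervals of 2 SE included 0 and were wide, from -0.53 to 1.40 for Epas1 and from -0.10 to 3.27 for Otx2os1, so that differences of more than 2-fold were within them. Over all embryos, the highest level was 6.5 times the lowest for Epas1, 6.76 times for Bbx, 6.82 times for Otx2, 7.74 times for Sox21 and 22.3 times for Otx2os1.

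**Figure D3:**
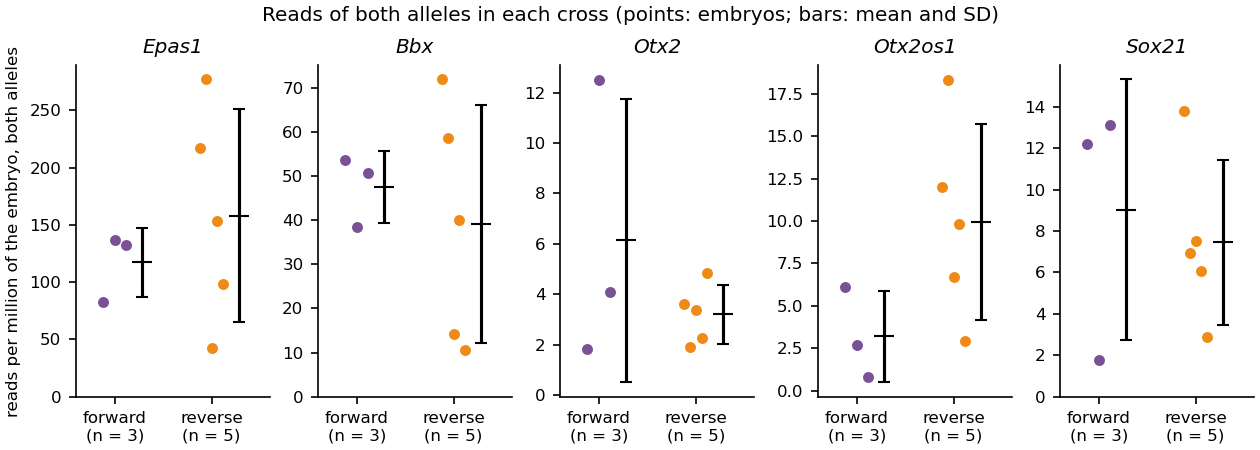
CPM of both alleles (y axis, linear from 0, a scale for each gene) in the forward (purple, n = 3) and reverse (orange, n = 5) cross. Points are embryos and the bars show the mean and SD; the points of both crosses overlap for every gene.

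Only Epas1 and Bbx had a median of at least 20 reads per embryo, and their levels were compared over the embryos. Across the 8 embryos, log2(CPM + 1) of Epas1 and Bbx gave Pearson's r = 0.69 (exact permutation test, two-sided, p = 0.0832) and Spearman's rho = 0.619 (p = 0.115, exact permutation test), with 1 relation computed. Without the 2 embryos farthest from the median of Epas1, reverse embryos 2 and 3, r was 0.478 (n = 6, exact permutation p = 0.4), so the relation did not pass the test and rested in part on these embryos. Taken as deviations from the mean of each cross, r over the 8 embryos was 0.778 (exact permutation p = 0.027). For the log2 values themselves, without such deviations, r was 0.813 without forward embryo 1 (exact permutation p = 0.0278). Over the 10 processing alternatives of this relation r ran from 0.513 to 0.82, and the exact permutation p from 0.027 to 0.229. In 7 of the 10 the result stayed the same, so that the relation did not pass the test. The reads of Epas1 per read of Bbx ranged from 1.55 in forward embryo 1 to 9.27 in reverse embryo 7.

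The genes with patterns most like those of Epas1 and Bbx over the 16 allele libraries were other paternally read genes. This likeness contains the split between parents that chose the members and is a description. For Epas1 the highest Pearson's r were those of 2400006E01Rik (0.982, a lincRNA, 25 maternal and 684 paternal reads), Mark1 (0.976, a kinase of microtubule-associated proteins, 14 and 342), Gm33149 (0.973, 5 and 341), Bbx (0.973) and Gab1 (0.972, a docking protein of receptor tyrosine kinases, 59 and 2019). For Bbx they were Gm33149 (0.974), Epas1 (0.973), Mbnl2 (0.972, a splicing regulator, 34 and 1240), 2400006E01Rik (0.97) and Mark1 (0.968). The median r over the other 12564 genes was 0.03 for Epas1 and 0.02 for Bbx. Otx2 ranked 58 for Epas1 (r = 0.876) and 50 for Bbx (r = 0.874), and Otx2os1 ranked 279 (r = 0.661) and 264 (r = 0.653).

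No partner or sensor of the HIF pathway was called between the parental alleles, a count near the background share. In the comparison of parental alleles 139 of 12565 genes (1.11%) were called higher from the paternal and 40 (0.318%) from the maternal allele. Of the 10 HIF subunits and oxygen sensors tested, 0 were called by edgeR and by DESeq2, and 0 had an unadjusted p of at most 0.05, with a median log2 difference of paternal over maternal of 0.13 beside -0.01 for all genes tested. Egln1, the main prolyl hydroxylase that marks HIF-alpha for degradation, had 1488 maternal and 2113 paternal reads (log2 difference 0.01 ± 0.28 SE). Vhl, the recognition subunit of the ligase that then binds HIF-alpha, had 635 and 735 (0.10 ± 0.30). The coactivator gene Crebbp had 731 and 706 (-0.06 ± 0.35). Arnt, the partner of HIF-2alpha, had 341 and 419 reads (0.30 ± 0.37). Its paralog Arnt2 had 6 maternal and 31 paternal reads (1.93 ± 1.12, adjusted p = 0.877), so that a difference of this size was not detectable at this depth.

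Of the 18 HIF target genes tested, 0 were called by edgeR and by DESeq2, with a median log2 difference of 0.11, and 1, P4ha2, had an unadjusted p of at most 0.05. Hk2, which encodes hexokinase 2, had 7525 maternal and 8381 paternal reads (0.05 ± 0.25), and Aldoa, an aldolase of glycolysis, had 2001 and 1712 (-0.17 ± 0.58). Ndrg1, a stress-responsive gene, had 1852 and 3999 reads, the paternal ones ahead in 8 of 8 embryos, and was not called (1.53 ± 0.76, adjusted p = 0.723). With a term for each embryo, 389 of the 12565 genes were called between parental alleles, in either direction. Ndrg1 was called in that fit at 2.001 (adjusted p = 9.26e-06). So was P4ha2, a collagen prolyl hydroxylase, at 2.06 (adjusted p = 1.09e-05, 615 against 953 reads, paternal ahead in 5 of 8 embryos).

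Of the 25 Sox and other HMG-box genes tested besides Bbx and Sox21, 0 were called by edgeR and by DESeq2, with a median of 0.09, and 1, Tcf7l2, had an unadjusted p of at most 0.05 (570 maternal and 407 paternal reads, -0.68 ± 0.29). Ubtf, a factor of ribosomal RNA transcription, had 1629 maternal and 1657 paternal reads (-0.03 ± 0.28). Hmgb2 had 738 and 804 (0.11 ± 0.28) and Tox4 718 and 788 (-0.02 ± 0.24). Among the 19 tested partners of Otx2 and epiblast genes, 0 were called by edgeR and by DESeq2, with a median of -0.02, and 1, Utf1, had an unadjusted p of at most 0.05. Tfcp2l1, a factor of naive pluripotency, had 6355 maternal and 6898 paternal reads (0.02 ± 0.23). Tdgf1, the Nodal co-receptor, had 2791 and 2626 (-0.30 ± 0.27), and the DNA methyltransferase gene Dnmt3b had 1325 and 1309 (-0.06 ± 0.25). With a term for each embryo Utf1, a chromatin-associated pluripotency gene, was called at 1.80 (adjusted p = 0.0652, 60 maternal and 155 paternal reads), and this call was lost in 6 of the 8 fits leaving out an embryo, namely each of the 3 forward embryos and embryos 2, 3 and 7 of the reverse cross. The paralog Otx1 had 3 reads in all and was not tested.

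**Figure D4:**
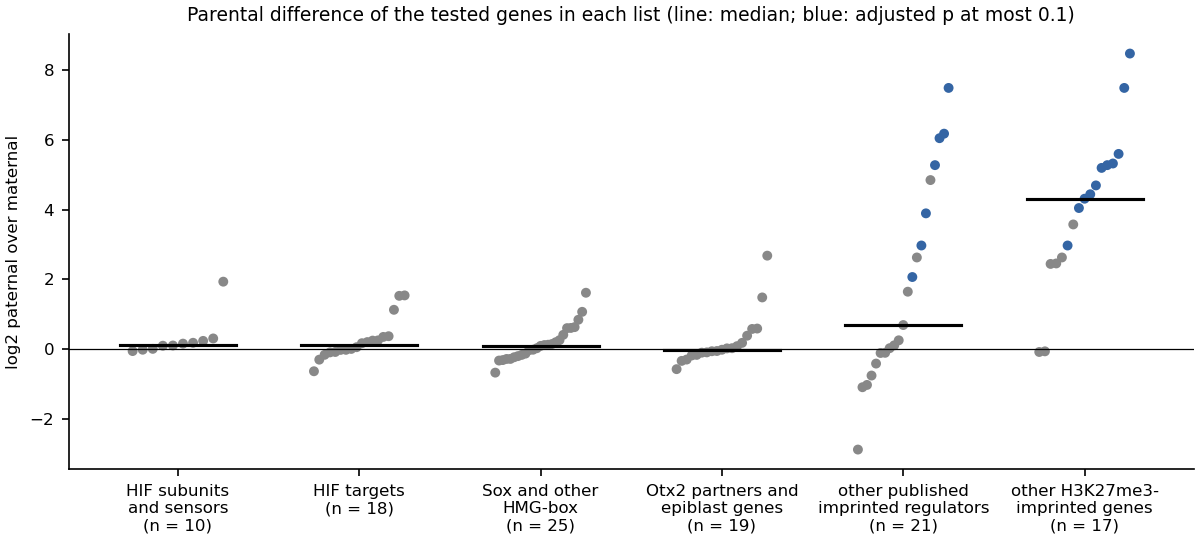
Log2 difference of paternal over maternal reads (y axis) of each tested gene in 6 lists (x axis, the members left out), with the median as a line and genes at an adjusted p of at most 0.1 in blue. The first 4 lists have medians between -0.02 and 0.13 and no called gene, and the imprinted gene lists have medians of 0.69 and 4.32.

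Other imprinted genes were often read more from the paternal allele. These lists were written from genes published as imprinted, with results of these samples known, so that their counts are no independent evidence of the direction. Of 21 other published imprinted transcription regulators tested, 7 were called higher from the paternal and 0 from the maternal allele. They were Sfmbt2, a Polycomb group gene (16 maternal and 3521 paternal reads, log2 difference 7.49 ± 0.58), Runx1 (5 and 430, 6.18 ± 0.60), Peg3 (3 and 261, 6.05 ± 0.68), Jade1 (23 and 991, 5.28 ± 0.57), E2f3 (20 and 345, 3.89 ± 0.78), Etv6 (435 and 1807, 2.97 ± 0.68) and Zfp64 (197 and 735, 2.07 ± 0.53). Arid1b, a chromatin remodelling subunit with the third most reads of the list, had 1228 maternal and 925 paternal reads and was not called (-0.42 ± 0.40). Of 17 other genes of H3K27me3-linked imprinting tested, 11 were called paternal and 0 maternal. Sfmbt2, Jade1 and Etv6 are on both lists. The other 8 were Slc38a4 (8.48 ± 0.44), Slc38a1 (5.60 ± 0.60), Mbnl2 (5.33 ± 0.70), Gab1 (5.20 ± 0.54), Hunk (4.70 ± 1.17), Smoc1 (4.44 ± 0.64), Platr4 (4.32 ± 0.69) and Gramd1b (4.05 ± 0.56). Hunk was carried by 53 reads and lost its call in 12 of its 21 alternatives, and Zfp64 in 4 of 22. With a term for each embryo, 8 of the 21 regulators and 12 of the 17 genes of H3K27me3-linked imprinting were called paternal. That fit called 389 of all 12565 genes in either direction, against 179 without the term. Slc38a2 (8 maternal and 128 paternal reads, adjusted p = 0.119 without and 0.00795 with the term) and Tle3 (21 and 122, 0.158 and 0.0139), which is on both lists, gained a call, with paternal reads ahead in 8 of 8 embryos. Hunk lost its call (adjusted p = 0.146).

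The genes around the members were examined in the same comparison. Within 250 kb of a member lay 23 other genes of the table, of which 12 passed the filter. Of these, 3 were called higher from the paternal allele, where 1.11% of all genes tested were. At Epas1 it was Prkce, which encodes a protein kinase C isoform and lies 95.8 kb from Epas1. Its paternal reads, 242 against 18 maternal ones, were the more numerous in 8 of 8 embryos (log2 difference 3.47 ± 0.71 SE, adjusted p = 0.00903). Forward embryo 1 held 12 of the 18. The 3 genes on the other side of Epas1 were not called. Rhoq had 56 maternal and 83 paternal reads (0.72 ± 0.74), Pigf, of GPI anchor synthesis, 119 and 149 (0.17 ± 0.43), and Cript 979 and 1233 (0.14 ± 0.30).

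At Sox21 the neighbours were paternal on both sides. Gm32045 lies 6.87 kb downstream of Sox21, and had 0 maternal and 52 paternal reads, with paternal reads in 7 of 8 embryos (log2 difference 5.97 ± 1.18, adjusted p = 0.0174). Its paternal reads were 15, 11 and 6 in the forward embryos, by number, and 1, 9, 3, 7 and 0 in the reverse ones. It passed the filter only through the paternal libraries of forward embryos 1 and 2, the allele in which it is high. Its adjusted p is therefore no independent support. Its call was lost in 5 of its 21 alternatives. Abcc4, a transporter of cyclic nucleotides and other organic anions 246 kb from Sox21, had 120 maternal against 2557 paternal reads, and the paternal ones were more in 8 of 8 embryos (4.86 ± 0.73, adjusted p = 0.000282). Of the maternal reads of Abcc4, 58, 15 and 42 lay in forward embryos 1, 2 and 3. Gpr180 (60 and 153 reads, 1.34 ± 0.49, adjusted p = 0.365) and Tgds (99 and 192 reads, 0.94 ± 0.44, adjusted p = 0.651) were not called.

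Around Otx2 and Otx2os1, 0 of the 4 tested neighbours were called by edgeR or DESeq2, and 0 had an unadjusted p of at most 0.05. Gm38660 lies inside the span of Otx2os1 and had 6 maternal and 30 paternal reads (1.89 ± 0.98, adjusted p = 0.765). In forward embryos 1 and 2 its counts were those of Otx2os1, 2 maternal and 8 paternal, and 2 maternal and 1 paternal. So were those in reverse embryo 7, 1 maternal and 2 paternal. Reverse embryo 3 had 1 maternal read of each gene. Only in forward embryo 3 did the maternal reads differ, with 1 of Otx2os1 and 0 of Gm38660. In reverse embryos 1, 2 and 5 Gm38660 had 2, 10 and 2 paternal reads, fewer than Otx2os1. The span of Gm38660 covers 315 of the 2640 exon bases of Otx2os1. Whether reads were counted for both genes, the maternal reads of Otx2os1 among them, was not tested. Tmem260 (61 and 80 reads, 0.43 ± 0.77), Exoc5 (33 and 38, 0.11 ± 0.80) and Ap5m1 (147 and 134, -0.31 ± 0.41) lay farther out. No neighbour of Bbx within 250 kb passed the filter, and the 4 genes there held 1 to 13 reads each. Within 1 Mb of the members, 5 of 39 tested genes were called, all paternal. They included Dubr, a non-coding RNA gene 287 kb from Bbx with 3 maternal and 369 paternal reads (6.10 ± 0.60, adjusted p = 1.01e-06), and Gm27198, 491 kb from Sox21, with 4 and 240 reads (5.60 ± 0.70, adjusted p = 2.41e-05).

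**Figure D5:**
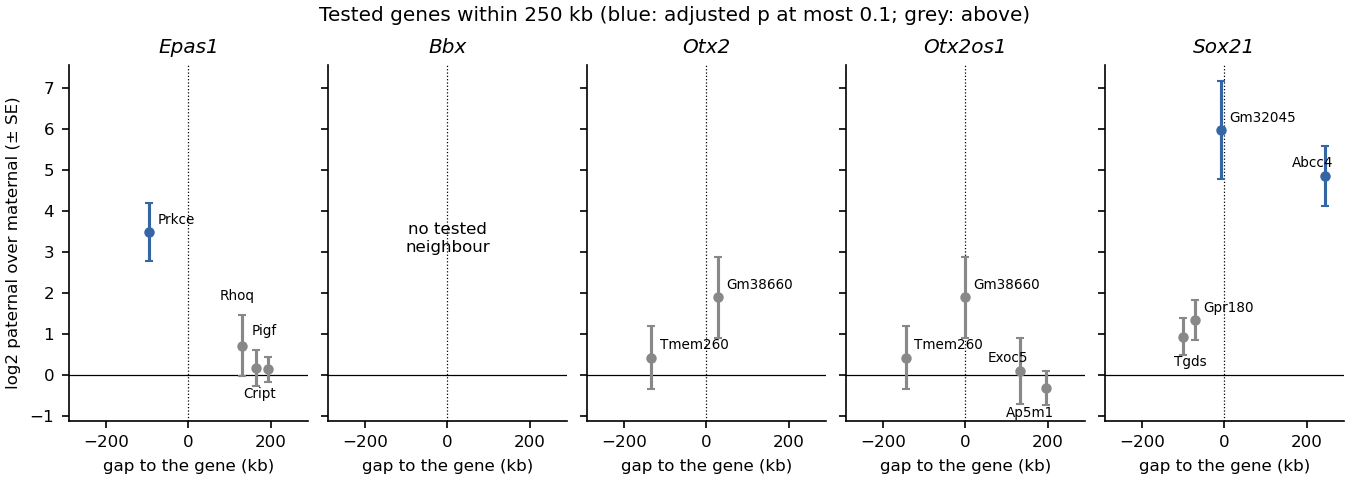
Log2 difference of paternal over maternal reads with its SE (y axis) of tested genes within 250 kb of each member against the gap to the member in kb (x axis, in the direction of the plus strand, 0 where the spans overlap). Blue marks an adjusted p of at most 0.1, reached by Prkce near Epas1 and by Gm32045 and Abcc4 near Sox21.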

How the data were processed

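Single blastocysts at E3.5 were sequenced with a SMART-Seq2 compatible protocol. According to their methods, the authors aligned reads to mm10 with STAR (2.5.2b in the submitters' processing notes), left out reads mapping to multiple locations, kept reads covering SNPs between B6 and cast, and summed them by gene and strain within Allelome.Pro. The deposited values are these counts, without normalization. Whether strand was used is not given in the sources used here.

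Maternal and paternal counts were assigned by the cross, and all but 1113 of 22810 genes were placed by symbol with GENCODE M21 or RefSeq. Autosomal genes with at least 10 reads in at least 1 library entered the quasi-likelihood test of edgeR 4.0.16, run in R 4.3.3 with limma 3.58.1 and TMM factors, at an adjusted p of at most 0.1. The allele model held strain and parent, and embryo totals were compared between the crosses. Levels are CPM scaled by TMM, except the sums of marker lists, which use the plain total of an embryo. Relations over embryos used log2 of these levels with a pseudocount of 1.

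The deviations of both alleles of an embryo correlated with r = 0.098 to 0.596 over 8099 genes, and the replicate block fit adds an embryo term for this pairing. Alternatives were DESeq2 1.42.0, RLE factors, 1 library size per embryo, other filters, and leaving out each embryo. The embryo term together with leaving out an embryo was added after seeing the data. Members and lists were chosen with earlier results of these data known. Named were the members, tested neighbours within 250 kb, called list genes, the 3 most read genes of each list, and the 5 genes most like Epas1 and Bbx; Arnt, Arnt2, P4ha2, Tcf7l2, Utf1, Otx1, the leukocyte genes, Slc38a2, Tle3, Dubr and Gm27198 were added after their values were seen. The fits were tested on simulated data, in which both alleles of an embryo were drawn independently, unlike the correlated alleles here. Between parental alleles, 73 of 93 genes with a log2 difference of 2 and 104 of 107 with one of 3 were recovered, and 11.5% of 200 calls were false. Between the crosses, 59 of 93 and 104 of 107 were recovered, and 8.43% of 178 calls were false. No 2 embryos of the same cross agreed within sampling noise.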

Additional observations from a re-analysis of the deposited data

Results flagged for a closer look

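The strain values of Epas1 and Bbx were flagged in the replicate block fit, which adds an embryo term. The log2 value of cast over B6 was -2.26 for Epas1 and -1.74 for Bbx. This fit compares the maternal to paternal ratio of the crosses, so the values restate the uneven maternal reads given above and are not independent of how the members were chosen. Over the 8 fits that also left out 1 embryo, the values ran from -3.02 to -1.79 for Epas1 and from -2.06 to -0.97 for Bbx.

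In the reverse cross, 8 sets of 5 values were examined for an embryo far from the others, and chance alone marks about 1 in 20 such sets. The paternal share of Epas1 was 99.5% in reverse embryo 5 and 100% in the other 4, which is a gap of 1 read among 202. The paternal share of Sox21 was 33.3% in reverse embryo 7 and 100% in the other 4, and this embryo had 3 reads of Sox21.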

How the results depend on the processing

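Members: no cross difference of a member was called in any of its alternatives, and the paternal shares moved by less than the SD between embryos in all of theirs. The count of members with a strain difference went from 0 to 1 with 1 library size per embryo and without a filter. It stayed at 0 in each fit leaving out an embryo without the replicate block. For Epas1 the strain difference was -1.32 (adjusted p = 0.0956) with 1 library size per embryo, -0.97 (adjusted p = 0.0698) without a filter and -2.26 with the replicate block, where Bbx had -1.74. The values with the block are a description. Without it the adjusted p over the alternatives ran from 0.0698 to 0.672 for Epas1 and from 0.663 to 0.979 for Bbx. Leaving out embryos, with and without the block, gave -3.02 to -0.61 for Epas1, -2.06 to 0.32 for Bbx and -2.03 to 0.22 for Sox21. Without the block, the sign of Bbx turned without forward embryo 1 (0.26), reverse embryo 1 (0.32) or reverse embryo 2 (0.07), and that of Sox21 without forward embryo 1 (0.22, and 0.10 with the block). The cross difference of Sox21 was 0.30 with the replicate number as block and -0.75 to 0.077 when embryos were left out. The r of Epas1 and Bbx was 0.703 on unlogged CPM (exact permutation p = 0.0409), 0.778 within crosses, and 0.513 to 0.82 when an embryo was left out. The causes were not tested.

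Counts over all genes: the 179 parental calls became 75 with 10 reads in every embryo, 406 without a filter, 389 with the replicate block and 120 to 442 leaving out embryos. The 1945 strain calls became 1068 with 10 reads in every embryo, 3207 with the block and 1206 to 3456 leaving out embryos, the lowest without forward embryo 1. The 9 cross calls became 0 with 10 reads in every embryo (fewer genes tested), 143 without a filter, 136 with DESeq2 and 21 with the replicate number as block, and 3 (without forward embryo 1) to 160 (without reverse embryo 1) leaving out embryos. Replicate numbers did not pair embryos of the crosses (r of deviations 0.178, 0.0158 and 0.14). Of 104 tested list genes, 15 were called, and 13 to 21 over the alternatives. The 3 called neighbours became 1 with 10 reads in every embryo and 5 within 1 Mb.

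Otx2, Otx2os1 and Sox21 rest on 43 to 92 reads, which limits every share and difference given for them.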
